A study of Mus musculus with 26 samples.

Results

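Small RNAs of the dorsal (dHC) and ventral hippocampus (vHC) were compared in mice that had swum. The comparison took the libraries whose names mark a swim and collection 45 mins after its start, 6 of dHC and 6 of vHC, which are 12 of the 26 libraries analysed here. The mice were C57BL/6J males between 2 and 3 months of age, they swam for 6 mins in water of 18 °C, and tissue of both hemispheres was taken. Each of the 3 processing blocks given in the labels held 2 swim libraries of each region, so region could be compared within block. The other 14 libraries came from control mice that stayed in the home cage, 6 of dHC and 8 of vHC, and are used below as an independent set of regional differences and in the test of the interaction. The swim libraries of a block have neighbouring numbers, but the labels do not say which dHC and vHC libraries came from the same mouse, so they were not paired, and p-values measure the spread between these libraries.

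Small RNA sequencing counts short RNAs, of which miRNAs make up the largest class here. A miRNA is cut from a hairpin precursor and guides a silencing complex to mRNAs through its seed, the bases 2 to 8 of the mature strand, so that miRNAs with one seed can bind many of the same mRNAs. Many miRNAs are cut from a shared transcript, and several are typical of one cell type, such as oligodendrocytes or the ciliated epithelium that lines the ventricles. The dorsal end of the hippocampus is best known for spatial memory and the ventral end for anxiety. The table counts each hairpin as a whole and does not separate the strands of its 2 arms. It holds no mRNA, so the labelled regions could not be checked against the usual mRNA markers. In a bulk sample, fewer cells of a type and less RNA per cell cannot be told apart.

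Among the miRNAs that differed between the regions, 12 seeds were shared by 2 or more of them, and for each of these seeds all the miRNAs called lay in 1 direction. The seeds are not separate observations, since both arms of a hairpin share its count, as in the mir-7 pair and the mir-200 family. Some tested miRNAs with such a seed were not called, 4 of 6 for that of mir-15a and mir-16 and 3 of 5 for that of mir-25 and mir-92a. Agreement over all seeds tested was not computed. Mature sequences were found in RefSeq (GRCm38.p6) for 76 of the 79 miRNAs called, and sets with a shared seed are shown because they differed together. The seed is in capitals. The mir-200 family, typical of epithelial cells and olfactory neurons, carries 2 seeds on its main strands and was lower in dHC throughout.
mmu-miR-200b-3p: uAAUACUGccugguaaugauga
mmu-miR-200c-3p: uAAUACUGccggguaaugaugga
mmu-miR-429-3p: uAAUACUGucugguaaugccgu
mmu-miR-200a-3p: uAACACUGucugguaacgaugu
mmu-miR-141-3p: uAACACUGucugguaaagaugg

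The next set is higher in dHC. These 4 miRNAs belong to the growth-related clusters of mir-17 and mir-106b, and 4 of the 5 miRNAs tested that carry their seed were called.
mmu-miR-17-5p: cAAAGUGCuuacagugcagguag
mmu-miR-20a-5p: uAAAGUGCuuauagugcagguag
mmu-miR-93-5p: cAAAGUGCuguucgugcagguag
mmu-miR-106b-5p: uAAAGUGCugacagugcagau

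Further pairs with a shared seed are those of mir-7, lower in dHC, and those of the Hox clusters and of ciliated cells, higher in dHC. The seed shown for the ciliated cell pair is also that of mir-34a, which was tested and not called. The mir-7 and Hox pairs are alike well beyond the seed and can share reads in the authors' counting. For these the level of each single member is less certain than that of the pair. The ciliated cell pair differs at many bases outside the seed.
mmu-miR-7a-5p: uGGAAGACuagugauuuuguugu
mmu-miR-7b-5p: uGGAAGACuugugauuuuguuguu
mmu-miR-10a-5p: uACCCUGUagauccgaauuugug
mmu-miR-10b-5p: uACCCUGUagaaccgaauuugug
mmu-miR-34b-5p: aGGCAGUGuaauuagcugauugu
mmu-miR-449a-5p: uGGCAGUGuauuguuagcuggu

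The miRNA with the largest difference, mir-1247, shares its seeds with none of the others called. Both strands are printed because the table does not tell them apart.
mmu-miR-1247-5p: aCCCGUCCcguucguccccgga
mmu-miR-1247-3p: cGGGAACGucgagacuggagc

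Total miRNA counts were between 1357739 and 4819724 in the dHC libraries (median 2880143) and between 1658322 and 3165488 in the vHC libraries (median 2600309). The log10 total did not differ detectably between regions (two-sided exact permutation test, 924 relabellings, p = 0.812). miRNAs took up 90.6% ± 1.47 of the counts in dHC and 91.2% ± 1.09 in vHC (SD, n = 6 each, exact permutation p = 0.474), and the shares of tRNA (p = 0.398) and rRNA (p = 0.641) gave no call either. All 4 adjusted p-values were 0.812, and with labels exchanged only within block they were between 0.333 and 0.806. The miRNA with the highest count was mir-9, a miRNA of neural progenitors and neurons, with 11.2% of the miRNA counts. It was followed by mir-26a (5.40%), the neuronal miRNAs mir-124 (4.30%) and mir-128 (4.11%), and mir-125b (3.47%). The 8 miRNAs of a neuronal list summed to between 183502 and 280936 normalized CPM in dHC and between 209589 and 257501 in vHC, and none was at 0 in any swim library.

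After copies from several hairpins were summed, 379 of 962 miRNAs had enough counts to be tested, and these held 99.96% of the miRNA counts. A miRNA is named as called when its adjusted p was under 0.05. Of the 379, 79 were called (20.8%), 32 higher in dHC (8.44%) and 47 lower (12.4%). Fitted together with the tRNA and rRNA entries, with another library size and scaling, the same miRNAs gave 19 calls higher and 51 lower, so the split between the directions depends on the scaling. Without the block term there were 44 calls, 11 higher and 33 lower. Differences were mostly modest: the median size of a called log2 difference was 0.61, 34 of the 79 lay within 1.5-fold, and 12 passed 2-fold, 1 of them higher and 11 lower in dHC. For 28 of the 79 the libraries of the regions did not overlap, where 7.65% of all miRNAs tested did not. In each of the 79 the difference had the same sign in all 3 blocks, as it had in 190 of the 379 (50.1%). Of the 300 not called, 274 had a 95% interval within 2-fold and 160 within 1.5-fold, and at an unadjusted p under 0.05 there were 133 miRNAs in all.

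**Figure D1:**
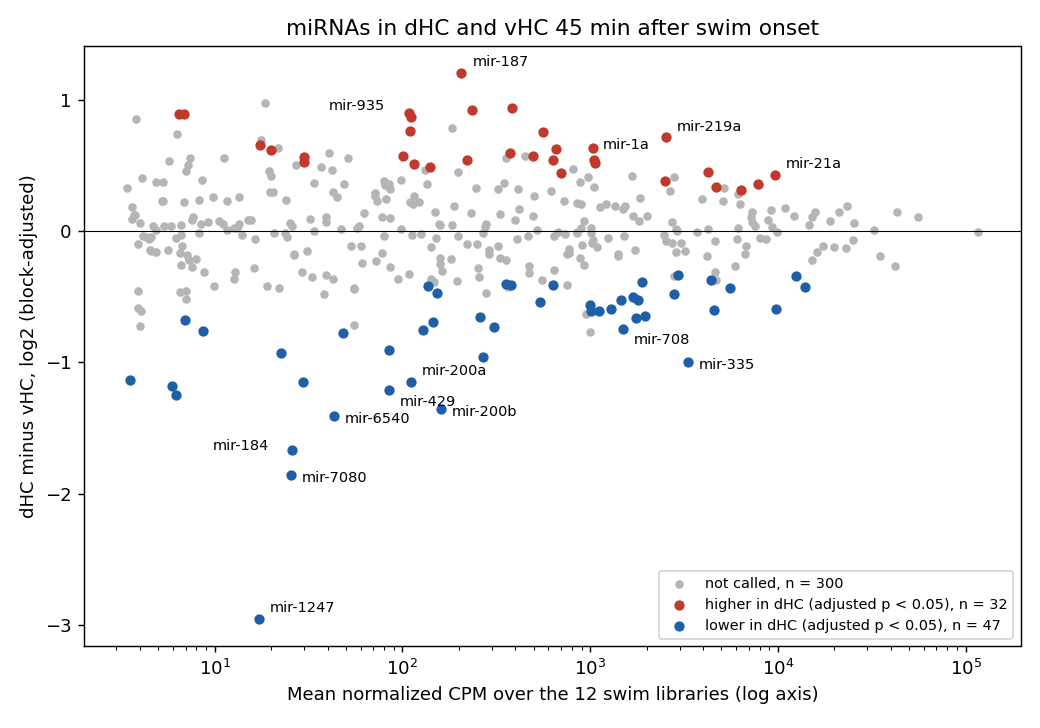
Each of the 379 miRNAs tested, by its mean normalized CPM over the 12 swim libraries (x, log axis) and its log2 difference, dHC minus vHC (y). The 32 red points are called higher in dHC and the 47 blue points lower; the lowest point, at -2.95, is mir-1247, and the highest red point, at 1.20, is mir-187.

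The largest differences were of miRNAs low in dHC. Levels are given as normalized CPM, counts scaled to a common library size. The hairpin of mir-1247 lies on chromosome 12 from 110278048 to 110278129, minus strand (GRCm38.p6), in an exon of Dio3os, the antisense partner of the imprinted gene Dio3. Its level was between 1.85 and 7.85 CPM in dHC (median 4.02) and between 17.5 and 39.2 in vHC (median 29.97). Every dHC library was thus below every vHC library, and the log2 difference was -2.95 (SE 0.28, adjusted p = 2.6e-06).

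The next was mir-7080, on chromosome 8 from 123130106 to 123130172 in an exon of Cpne7, which encodes a calcium-dependent membrane-binding protein. It had between 6.68 and 14.8 CPM in dHC (median 10.9) and between 22.5 and 62.9 in vHC (median 39.0), a log2 difference of -1.86 (SE 0.18, adjusted p = 3.81e-06). From an intron of Gap43, the gene of a growth cone protein, on chromosome 16 (42303362 to 42303469) comes mir-6540. In dHC it was between 13.8 and 37.5 CPM (median 23.5) and in vHC between 51.0 and 69.5 (median 63.7), with a log2 difference of -1.41 (SE 0.16, adjusted p = 1.48e-05). Neither of these miRNAs overlapped between the regions.

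An intron of the imprinted gene Mest on chromosome 6 (30741299 to 30741396) holds mir-335, the most abundant of the 10 with the smallest p among those lower in dHC. Values were between 1562 and 3192 CPM in dHC (median 2106) and between 3398 and 6052 in vHC (median 4093). Here too the regions were apart, by -0.996 on the log2 scale (SE 0.12, adjusted p = 1.48e-05). For mir-184, on chromosome 9 from 89802260 to 89802328 outside annotated genes, dHC had between 5.68 and 18.0 CPM (median 12.9) and vHC between 32.1 and 47.2 (median 37.5). Its log2 difference was -1.67 (SE 0.23, adjusted p = 0.000132). It is 1 of 4 miRNAs on a list of those known to respond to neuronal activity, and the only one called. Among all miRNAs tested 20.8% were called. The best known target of the activity-driven factor CREB, mir-132, had a log2 difference of 0.28 (SE 0.11, adjusted p = 0.0879). Neither mir-212 nor mir-134 was called.

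Lower in dHC as well were mir-708, with medians of 1095 CPM in dHC and 1856 in vHC (log2 difference -0.75, SE 0.12, adjusted p = 0.00032), and mir-3475, with medians of 57.7 and 106 (-0.91, SE 0.15, adjusted p = 0.000458). The highest dHC library of mir-708, at 1541 CPM, was under the lowest of vHC, at 1654. For mir-3475 these were 62.8 and 82.7. The 7 miRNAs just described kept their call when any 1 of the 12 libraries was left out and when the block was left out.

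**Figure D2:**
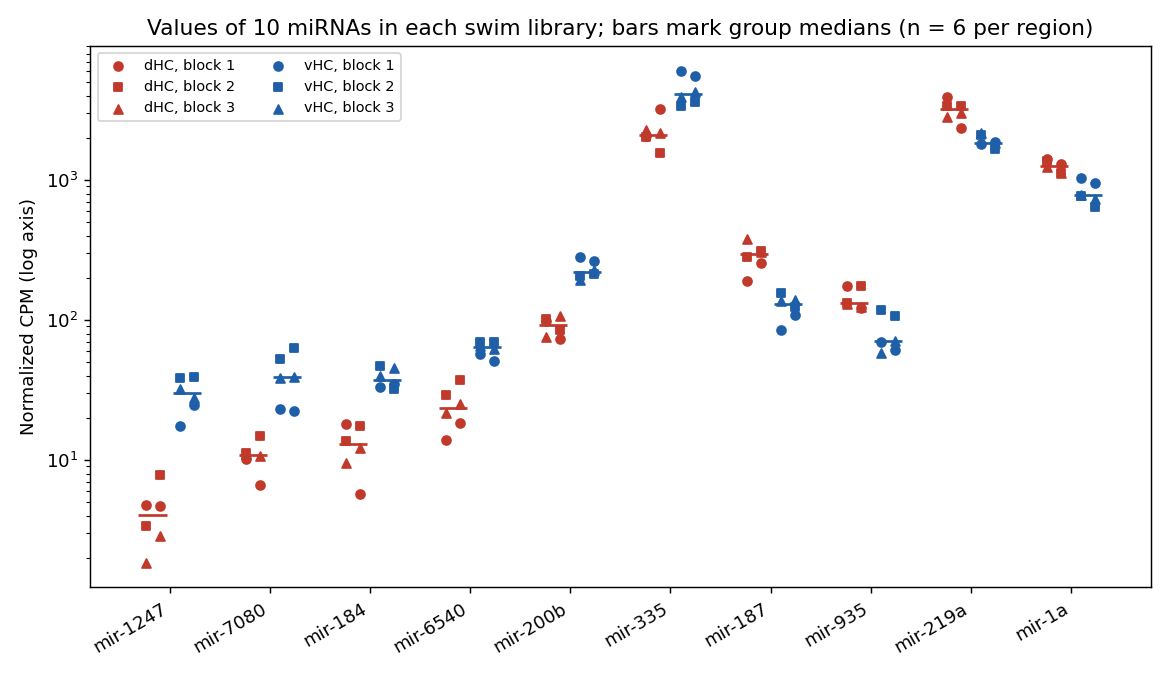
Normalized CPM (y, log axis) of 10 called miRNAs in each of the 12 swim libraries, dHC in red and vHC in blue, with a marker shape for each of the 3 processing blocks and a bar at the median of each region. In all 10 the 6 libraries of one region lie on one side of the 6 of the other, from mir-1247 with medians of 4.02 and 29.97 to mir-219a with 3199 and 1850. This follows from the choice of miRNAs, since others with small p that overlapped, such as mir-429 and mir-484, are not shown. Over all miRNAs tested 7.65% did not overlap.

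All 5 members of the mir-200 family were lower in dHC, with a median log2 difference of -1.21 where the median over all miRNAs tested was 0.01. Their hairpins form 2 clusters. On the minus strand of chromosome 4, mir-200b, mir-200a and mir-429 lie between 156053905 and 156055750, in Ttll10, and on the minus strand of chromosome 6, mir-200c and mir-141 lie between 124717914 and 124718390. The summed level of the family was between 197 and 279 CPM in dHC (median 228) and between 416 and 657 in vHC (median 545), so the highest dHC library was under the lowest vHC library.

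The member with the smallest p was mir-200b, between 72.9 and 107 CPM in dHC (median 91.9) and between 194 and 283 in vHC (median 221), a log2 difference of -1.35 (SE 0.15, adjusted p = 1.29e-05). The neighbouring mir-200a had medians of 62.8 and 149 CPM (-1.15, SE 0.17, adjusted p = 0.000193), and its regions did not overlap. The third of the cluster, mir-429, differed by -1.21 (SE 0.18, adjusted p = 0.000219), with a small overlap, since the highest dHC library had 72.0 CPM and the lowest vHC library 62.4. At lower levels, mir-200c had medians of 15.9 and 29.97 CPM (-0.93, SE 0.17, adjusted p = 0.000915) and mir-141 of 3.29 and 8.37 (-1.25, SE 0.25, adjusted p = 0.00175). The 5 calls held without any 1 library, without the block and under every scaling tried.

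On chromosome 12, the imprinted region between Dlk1 and Dio3 holds a group of miRNAs antisense to and around Rtl1 and, further on, a long group from mir-379 to mir-410. These are transcribed from the maternal chromosome with the long RNAs Meg3, Rian and Mirg, and are abundant in brain. In the first group 6 of 11 were called lower in dHC and 0 higher, and all 11 log2 differences were below 0 (median -0.34). In the second, 12 of 36 tested were called lower and 1 higher, and 34 of 36 were below 0 (median -0.36). The signs were as many below 0 under each of the 4 scalings compared, while calls of the first group ran from 4 to 7 and lower calls of the second from 11 to 14. Over all 379 miRNAs tested 12.4% were called lower and 8.44% higher, and the median log2 difference was 0.01.

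In the first group mir-433 was between 810 and 1995 CPM in dHC (median 1396) and between 1856 and 2423 in vHC (median 2121), a log2 difference of -0.66 (SE 0.13, adjusted p = 0.00195). For mir-770, in an exon of Meg3, the medians were 1037 and 1636 CPM (-0.59, SE 0.15, adjusted p = 0.0106), and for mir-493 they were 120 and 173 (-0.69, SE 0.19, adjusted p = 0.019). Of these only mir-493 had regions that did not overlap, with 138 CPM as its highest dHC value and 152 as its lowest in vHC. The abundant mir-434 and mir-127 had dHC medians of 11913 and 11698 CPM and vHC medians of 16282 and 15271, with log2 differences of -0.42 (SE 0.12, adjusted p = 0.0241) and -0.34 (SE 0.11, adjusted p = 0.0341). For mir-431 the difference was -0.40 (SE 0.13, adjusted p = 0.0421). The last 3 lost their call without the block, and 3 of the 6 calls remained without vHC library 15 or without vHC library 27.

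In the group from mir-379 to mir-410, the smallest p was that of mir-409, between 1257 and 1631 CPM in dHC (median 1492) and between 1991 and 2305 in vHC (median 2119), which did not overlap. Its log2 difference was -0.53 (SE 0.10, adjusted p = 0.000954). Close to it on the chromosome lie mir-412 (-0.66, SE 0.13, adjusted p = 0.0021), mir-369 (-0.43, SE 0.10, adjusted p = 0.00401) and mir-410 (-0.50, SE 0.12, adjusted p = 0.00591), all lower in dHC. These 4 hairpins follow each other within 109743158 to 109743795 of chromosome 12. Also lower were mir-382 (-0.48), mir-758 (-0.77), mir-495 (-0.57), mir-485 (-0.61), mir-300 (-0.39), mir-487b (-0.37), mir-541 (-0.34) and mir-666 (-0.41), each with an adjusted p between 0.0042 and 0.0333. Without the block 7 of the 13 calls were left, and without 1 library between 9 and 13.

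The exception was mir-299a, a hairpin at 109710638 to 109710700 near the start of the same group. It was between 113 and 157 CPM in dHC (median 140) and between 86.8 and 119 in vHC (median 91.0), and its log2 difference of 0.51 (SE 0.14, adjusted p = 0.0164) was above 0. In vHC library 19 it was 119, above the other vHC libraries. A hairpin less than 1 kb away, mir-411, gave -0.06 (SE 0.10) and was not called. In control mice the difference of mir-299a was 0.51 too (SE 0.12, adjusted p = 0.00403).

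**Figure D3:**
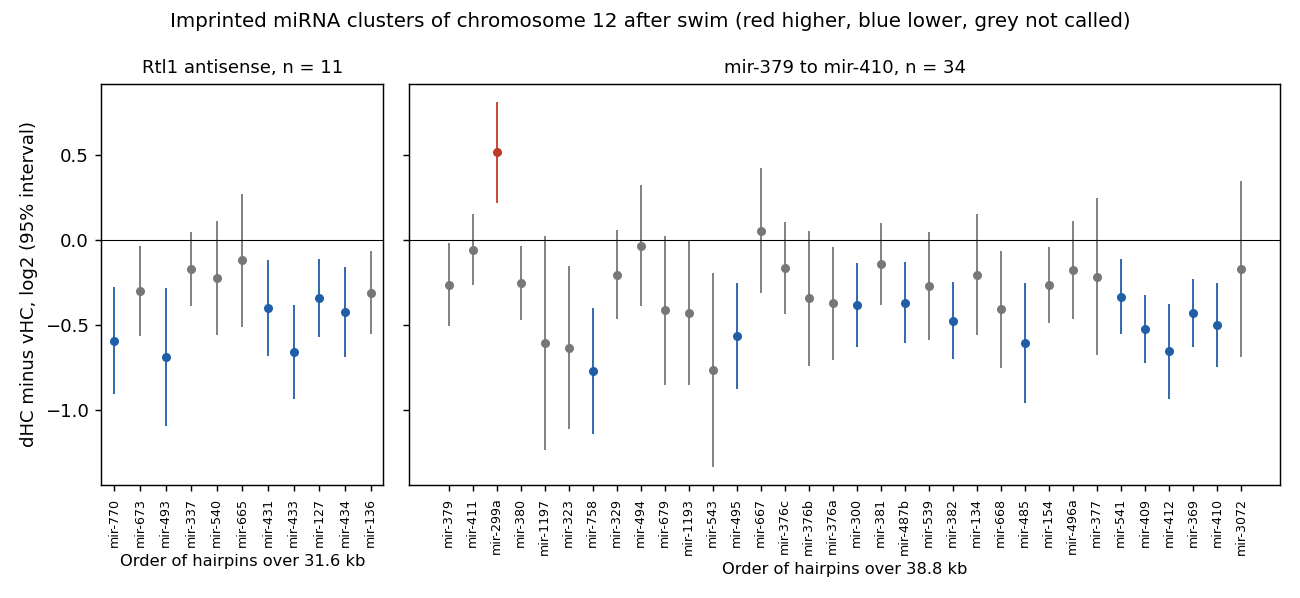
The log2 difference, dHC minus vHC, with its 95% interval (y) for the 11 tested miRNAs of the Rtl1 antisense group (left) and 34 of the mir-379 to mir-410 group (right) with a known position, in their order along chromosome 12 (x). All 11 points on the left and all but 2 on the right lie below 0; mir-299a, at 0.51, is the one called higher in dHC.

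Positions were known for 296 of the miRNAs tested and 64 of those called. Among these, hairpins under 10 kb apart on 1 strand formed 38 clusters of 2 or more tested miRNAs, and 7 clusters held 2 or more called miRNAs. In 6 of the 7 the calls lay in 1 direction, the other being the mir-379 to mir-410 cluster with mir-299a. These 7 were picked by their calls, and hairpins cut from a shared transcript are not separate observations. Agreement in direction over all 38 clusters was not computed.

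Higher in dHC with the smallest p was mir-187. It was between 189 and 381 CPM in dHC (median 295) and between 84.5 and 155 in vHC (median 131), did not overlap, and had a log2 difference of 1.20 (SE 0.13, adjusted p = 1.29e-05). It was the one miRNA called more than 2-fold higher in dHC. Next was mir-1a, best known from muscle, between 1113 and 1418 CPM in dHC (median 1268) and between 637 and 1036 in vHC (median 776), with a log2 difference of 0.64 (SE 0.11, adjusted p = 0.000623). For mir-935 dHC had between 122 and 176 CPM (median 131) and vHC between 57.8 and 117 (median 70.3), a log2 difference of 0.87 (SE 0.16, adjusted p = 0.00106). Neither overlapped between the regions.

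Of the abundant miRNAs, mir-21a, known for its rise in growing and inflamed tissue and located in the gene Vmp1 on chromosome 11 (86584067 to 86584158), was also higher in dHC. Values were between 10006 and 13634 CPM in dHC (median 10486) and between 7274 and 9190 in vHC (median 8280), which did not overlap, and the log2 difference was 0.43 (SE 0.10, adjusted p = 0.00404). For mir-484 the regions overlapped, with medians of 776 CPM in dHC and 494 in vHC (0.54, SE 0.12, adjusted p = 0.00401).

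The 2 miRNAs that drive the maturing of oligodendrocytes, the myelin-forming cells, were both higher in dHC. For mir-219a, which has a hairpin on chromosome 17 and one on chromosome 2, dHC had between 2342 and 3947 CPM (median 3199) and vHC between 1669 and 2184 (median 1850), with no overlap and a log2 difference of 0.72 (SE 0.13, adjusted p = 0.000713). In an intron of Aatk on chromosome 11 (120014765 to 120014862), mir-338 had between 2412 and 3381 CPM in dHC (median 2814) and between 1637 and 2573 in vHC (median 2263), a log2 difference of 0.38 (SE 0.09, adjusted p = 0.0104). Its call was lost without the block (adjusted p = 0.106). The summed level of the oligodendrocyte list was between 4754 and 6454 CPM in dHC and between 3439 and 4675 in vHC, and the part of the share of these cells in the other differences was not tested.

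Over all miRNAs tested 8.44% were called higher in dHC, and the median log2 difference was 0.01. Of the mir-17, mir-106a and mir-106b clusters, known for promoting cell division, 6 of 11 tested members were called higher and 0 lower in dHC. All 11 log2 differences were above 0 (median 0.54), as they were under each of the 4 scalings. The calls included the whole cluster of mir-106b, mir-93 and mir-25, which lies in the cell cycle gene Mcm7 on chromosome 5 from 138165321 to 138165818. For mir-106b dHC had between 526 and 660 CPM (median 594) and vHC between 350 and 470 (median 380), a log2 difference of 0.57 (SE 0.11, adjusted p = 0.00106). For mir-93 the ranges were 1066 to 1685 CPM (median 1128) and 739 to 951 (median 838), a difference of 0.54 (SE 0.11, adjusted p = 0.00357). Both were without overlap, whereas mir-25 overlapped, with medians of 802 and 575 CPM (0.44, SE 0.12, adjusted p = 0.015).

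From the Mir17hg transcript on chromosome 14, mir-17 (0.58, SE 0.18, adjusted p = 0.0357) and mir-20a (0.49, SE 0.14, adjusted p = 0.0244) were called and mir-19a, mir-19b and mir-18a were not, at differences of 0.56, 0.47 and 0.63. With medians of 1259 CPM in dHC and 830 in vHC, mir-92a was higher by 0.52 (SE 0.11, adjusted p = 0.00401). Without the block 2 of these 6 calls were left, mir-106b and mir-93, and the fit of the whole table gave 4.

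Among miRNAs of the choroid plexus, the epithelium that makes cerebrospinal fluid, and of ciliated cells, 5 of 5 tested had log2 differences above 0 (median 0.54). Of these, 3 were called higher in dHC, where 8.44% of all miRNAs tested were. In multiciliated cells mir-34b, mir-34c and mir-449a are abundant. In the sequences at hand mir-34b shares a 5p seed with mir-449a and a 3p seed with mir-34c. No 5p sequence of mir-34c was among them, so its 5p seed was not compared. The 5p seed is also that of mir-34a, which was tested and not called. On chromosome 9 (51103562 to 51103645), mir-34b was between 151 and 302 CPM in dHC (median 295) and between 143 and 217 in vHC (median 181), a difference of 0.54 (SE 0.16, adjusted p = 0.0256). The same transcript gives mir-34c, with medians of 694 and 561 CPM (0.63, SE 0.20, adjusted p = 0.0407), and mir-449a, from an intron of Cdc20b on chromosome 13, had 7.60 and 4.32 (0.89, SE 0.25, adjusted p = 0.0187). All 3 overlapped between the regions.

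The choroid plexus markers mir-204 and mir-211 were not called, at 0.42 (SE 0.21, adjusted p = 0.162) and 0.47 (SE 0.17, adjusted p = 0.0599). Summed over the list, levels were between 2251 and 4923 CPM in dHC and between 2310 and 3349 in vHC, and no member was at 0 over the swim libraries. This count is fragile, since 0 of the 3 calls were left without vHC library 27 and 1 without the block.

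Both tested miRNAs of the Hox clusters, mir-10a and mir-10b, were higher in dHC, with medians of 34.7 and 34.98 CPM in dHC and of 20.3 and 20.9 in vHC. The differences were 0.52 (SE 0.17, adjusted p = 0.0375) and 0.57 (SE 0.18, adjusted p = 0.0326), and the regions overlapped. Neither call held without dHC library 20 or 30, without vHC library 5, 21, 27 or 29, or without the block, and neither was called in the fit of the whole table.

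Enriched in neuroendocrine cells, mir-7a and mir-7b were both lower in dHC. Levels of mir-7a were between 6837 and 9738 CPM in dHC (median 7065) and between 9516 and 14427 in vHC (median 11751), a log2 difference of -0.59 (SE 0.13, adjusted p = 0.00401). For mir-7b the medians were 3223 and 5488 CPM (-0.60, SE 0.14, adjusted p = 0.00487). Both regions overlapped slightly, and both calls held without any 1 library and without the block. The miRNA mir-671, which is known to cleave the circular RNA that binds mir-7, gave 0.05 (SE 0.14, adjusted p = 0.865).

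An intron of Htr2c, the gene of a serotonin receptor, holds a group of miRNAs. Of these 1 of 4 tested, mir-764, was called lower in dHC, with medians of 3.63 and 8.11 CPM (-1.18, SE 0.31, adjusted p = 0.0129). Its regions overlapped, its lowest dHC library was at 0.87 CPM, and the log2 differences over the 3 blocks were -0.64, -2.32 and -0.45. Of the other members of the group, 2 had differences above 0 and mir-1264 was at -0.71 (SE 0.30, adjusted p = 0.102). Among the 8 neuronal miRNAs 1 was called, mir-129, with medians of 4292 CPM in dHC and 3355 in vHC (0.45, SE 0.14, adjusted p = 0.0341). One dHC library, number 6, was at 8759 CPM, and the difference moved between 0.27 and 0.53 when 1 library was left out. Of mir-99, mir-100 and mir-125, 1 of 5 was called, mir-99b at 0.33 (SE 0.10, adjusted p = 0.0315). Both of these calls were lost without the block. Since 20.8% of all miRNAs tested were called, 1 call among 4, 8 or 5 members is no result about these lists.

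Several families had 0 calls by edgeR: 11 of let-7 (median log2 difference 0.01), 3 of mir-29, 5 of mir-30, 4 of mir-181, 2 of mir-221 and mir-222, 2 of the sensory mir-183 cluster and 25 of the families in an intron of Sfmbt2. The same was true of 3 endothelial and mural, 5 microglial and immune and 4 erythroid miRNAs. Of these 64 miRNAs 6 had a p under 0.05 before adjustment, and DESeq2 and limma-voom called 0 as well. The endothelial and mural miRNAs ranged from -0.22 (mir-143) to 0.03 (mir-145a), with the endothelial mir-126a at -0.06 (SE 0.12). Of the erythroid miRNAs, mir-486a and mir-486b were at -0.39 (95% interval -0.72 to -0.05, adjusted p = 0.0958) and -0.36 (95% interval -0.69 to -0.03, adjusted p = 0.114), while mir-451a was at -0.06 and mir-144 at 0.02. The microglial and immune miRNAs lay on both sides of 0, with mir-146a at 0.23 and mir-142a at 0.14, mir-155 at -0.01, mir-150 at -0.05 and mir-223 at -0.48 (SE 0.28, adjusted p = 0.251).

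**Figure D4:**
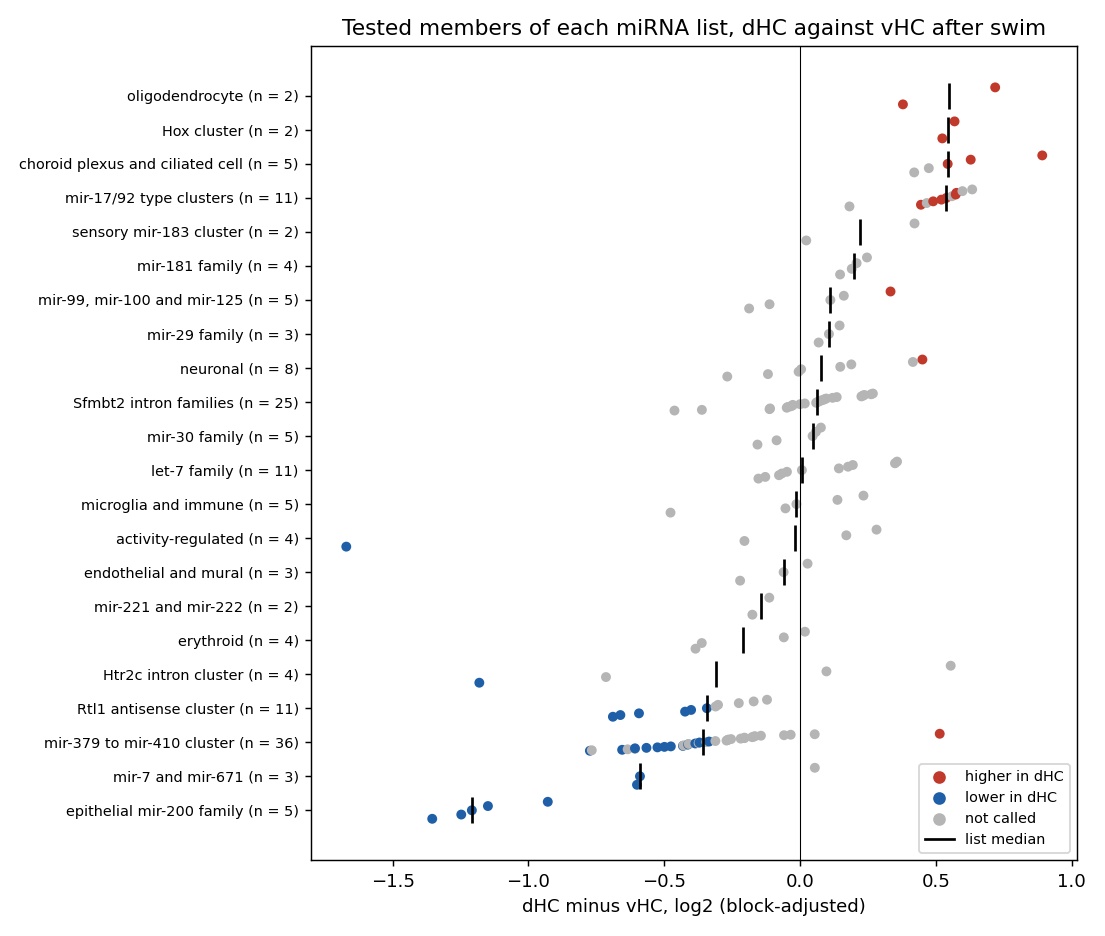
Log2 difference, dHC minus vHC (x), of every tested member of each list of miRNAs (y, with the number tested), coloured by call, with a bar at the list median. The mir-200 family sits lowest, with its 5 members at -0.93 or lower, and the imprinted groups lie mostly below 0, while all members of the mir-17 type, ciliated cell, Hox and oligodendrocyte lists lie above 0. Lists with 0 calls can lie on one side as well: mir-29, mir-181 and the sensory mir-183 cluster above 0, and mir-221 and mir-222 below.

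The control libraries, none of which entered the swim comparison, allow the same regional difference to be set beside it; both sets were prepared in the same 3 blocks. In the control mice 94 of 378 miRNAs were called (24.9%), 35 higher and 59 lower in dHC. All 79 miRNAs called after swim had the same direction in control mice. Of them, 55 were also called there, 69.6% of the swim calls and 58.5% of the control calls. Among the 295 not called after swim and tested in both, 225 had the same sign (76.3%). Across the 374 miRNAs tested in both, Pearson's r of the log2 differences was 0.81 and Spearman's rho 0.76, a description across miRNAs, which are not independent replicates. Without control dHC library 24, which had the lowest total, 54 of the 79 were called in control mice and all 79 kept their direction.

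Side by side, the log2 difference of mir-1247 was -2.95 after swim and -3.19 in control mice (SE 0.27), that of mir-7080 -1.86 and -2.22 (SE 0.20) and that of mir-187 1.20 and 1.09 (SE 0.14). For mir-184 the values were -1.67 and -2.36 (SE 0.17). Among the miRNAs called after swim and not in control mice were mir-935 (0.87 and 0.32, control SE 0.18), mir-410 (-0.50 and -0.08, SE 0.15) and mir-129 (0.45 and 0.07, SE 0.11). A call in one set and not in the other is no test of a difference, which the interaction of region and stress gives.

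In the fit of all 26 libraries 0 of 401 miRNAs (0%) were called for this interaction by edgeR. Before adjustment 17 had a p under 0.05, and the lowest adjusted p was 0.806. DESeq2, run on 956 miRNAs, also called 0, with 20 at a p under 0.05 before adjustment. The smallest p was that of mir-877, with a regional difference of 0.29 (SE 0.20) after swim and -0.36 (SE 0.16) in control mice, an interaction of 0.63 on the log2 scale (SE 0.25, adjusted p = 0.806). Of the 79 miRNAs called after swim, 66 had a 95% interval of the interaction within 2-fold, and 5 had an unadjusted p under 0.05. The median SE was 0.23, and a change must lie well beyond its SE to be called, as the 0.63 of mir-877 was not. Changes of the regional difference larger than the SE could therefore also go undetected with these libraries.

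**Figure D5:**
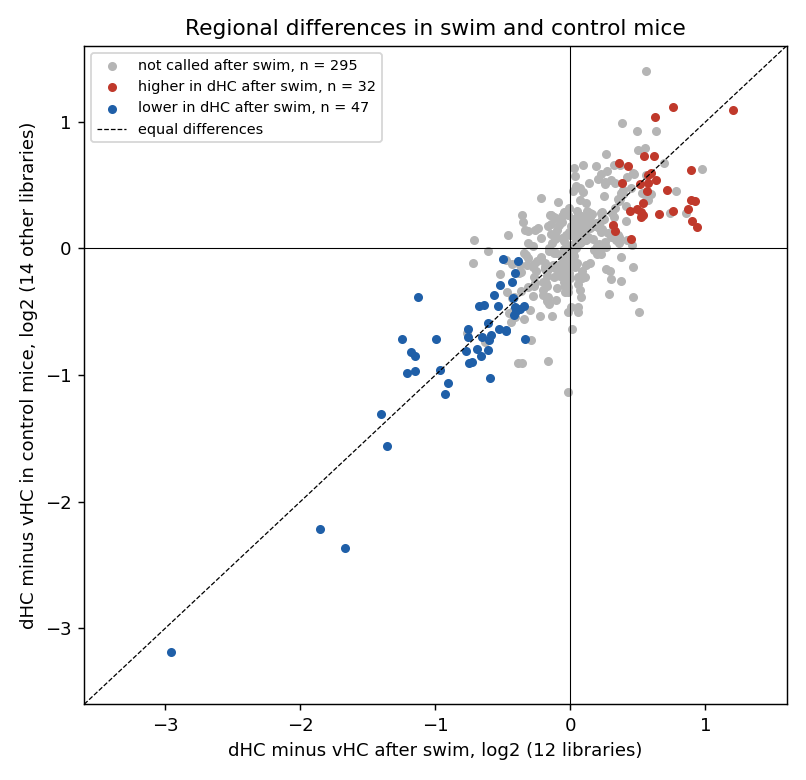
Log2 difference, dHC minus vHC, in the 12 swim libraries (x) and in the 14 control libraries (y) for the 374 miRNAs tested in both, coloured by the call after swim, with a dashed line of equal differences. All 79 coloured points lie in the lower left or upper right part, and mir-1247 is at the lower left end with -2.95 and -3.19.

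tRNA and rRNA entries were tested together with the miRNAs on the scale of the whole table, where 77 of 526 entries were called (14.6%). Of the 147 tRNA and rRNA entries, 7 were called (4.76%), all higher in dHC. The median log2 difference of the 147 was 0.14, with 118 above 0, beside a median of -0.05 for the miRNAs in the same fit. Of the 7, 3 were entries of tRNA-Gly-CCC, a carrier of glycine: its CCA end (not matched to the genome) at 0.97 (SE 0.22, adjusted p = 0.00884), its 3′ end at 0.76 (SE 0.21, adjusted p = 0.0216) and the whole tRNA (not matched to the genome) at 0.50 (SE 0.15, adjusted p = 0.0335). The entries overlap in sequence, so they are not separate measurements. In the second block the CCA end and the whole tRNA showed no such difference: over the 3 blocks the log2 differences were 1.48, -0.04 and 1.38 for the CCA end, 0.80, 0.23 and 0.95 for the 3′ end and 0.91, -0.03 and 0.61 for the whole tRNA.

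The CCA end was between 32.6 and 153 CPM in dHC (median 69.5) and between 21.6 and 51.6 in vHC (median 40.5), and in control mice it was also higher in dHC, by 1.12 (SE 0.24, adjusted p = 0.00316). The arginine tRNA entries tRNA-Arg-CCG (not matched to the genome) and the 5′ end of tRNA-Arg-ACG were higher by 0.98 (SE 0.27, adjusted p = 0.0216) and 1.15 (SE 0.37, adjusted p = 0.0412), at medians of 9.07 and 5.57 CPM in dHC and 4.61 and 2.36 in vHC. In control mice tRNA-Arg-CCG gave -0.72 (SE 0.37, adjusted p = 0.205) and the 5′ end of tRNA-Arg-ACG 0.29 (SE 0.32, adjusted p = 0.545). The 3′ end of tRNA-Gly-CCC gave 0.79 there (SE 0.21, adjusted p = 0.0125) and the whole tRNA-Gly-CCC 0.41 (SE 0.17, adjusted p = 0.114). In all 5 entries the regions overlapped. Without the block edgeR called 0 of the 147, with 14 at a p under 0.05 before adjustment, and without vHC library 5 there was 1.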

How the data were processed

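Small RNA was read in 26 libraries made with the Nextflex v3 kit from RNA extracted with Trizol. Adapters were removed by the authors with cutadapt, reads identical in sequence and molecular tag were merged, and Sports 1.0 assigned them to annotated RNAs. They deposited expected counts per annotated entry, without normalization, and 29.98% of the values are not whole. GRCm38 is given in the submitters' processing notes. The design had assumed whole counts, so values were rounded before edgeR. Hairpin copies of 1 miRNA were summed (1054 entries to 962 miRNAs, 3 entries not matched to the genome kept), which joins 42 of the miRNAs tested and 7 of those called.

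Swim libraries were fitted with block and region in edgeR 4.0.16 (R 4.3.3, quasi-likelihood test, TMM, filterByExpr with minimum count 10 and minimum total 15), with Benjamini-Hochberg adjustment. The library size was the miRNA total, or for tRNA and rRNA the total over miRNA, whole tRNA and rRNA entries. The tRNA ends, which are part of the whole tRNA entries, stayed out of that total, and the class shares used it too. SE came from the quasi-likelihood dispersion. The control and interaction fits used 14 and 26 libraries. The 30 pairs of libraries within a group were all further apart than sampling noise. The procedure was tested on simulated counts. Depth was between 1357739 and 4819724 miRNA counts per swim library, and precision is given as SE and 95% intervals. Alternatives used DESeq2 1.42.0, limma 3.58.1, sva 3.50.0, other scalings, filters and left-out libraries, and figures used matplotlib 3.10.9.

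The miRNAs and lists were chosen with earlier results of these data known. The miRNAs named are the 10 called with the smallest p in each direction, every called member of the lists, the 5 most abundant, the smallest p of the interaction and the 5 called tRNA or rRNA entries with the smallest p. Some members not called are named for contrast. Positions and sequences came from RefSeq (GRCm38.p6) and host genes from GENCODE on GRCm38. Authors' analyses of mRNA targets were not used here.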

Additional observations from a re-analysis of the deposited data

Results flagged for a closer look

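For the 54 named miRNAs, 5 tRNA entries, 3 class shares and the total count, 126 groups of 6 libraries were looked at for a single library far from the rest of its region, and 8 were found, all of miRNAs, where chance gives about 1 in 20 groups. In dHC library 6, mir-412 had 288.4 normalized CPM, the highest, with the next at 206.9. In the same library mir-495 had 457.5, the lowest, with the next at 837.8, and mir-493 had 53.37, the lowest, with the next at 112.7. That library was also the highest for mir-129, at 8759 with the next at 4735. In dHC library 16, mir-369 was the highest at 6001, with the next at 4645, and mir-487b was the highest at 5195, with the next at 3722. In vHC, mir-299a was highest in library 19, at 119.1 with the next at 91.91, and mir-99b in library 15, at 5762 with the next at 4130. Of these, mir-412, mir-495, mir-493, mir-369 and mir-299a kept their call without any 1 library, and mir-487b, mir-99b and mir-129 lost it in 7, 5 and 7 of the 12 fits.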

How the results depend on the processing

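Of 79 calls, 50 held without each of the 12 libraries, 43 under each of 11 other alternatives (60 when only the fit without block was set aside) and 40 in all. Without block there were 44 calls, 11 of them higher in dHC, and at an adjusted p under 0.01 there were 38, 9 higher and 29 lower. With 2 surrogate variables in place of block there were 48 higher and 59 lower. DESeq2, run on 892 miRNAs where edgeR tested 379, gave 46 and 54. Without 1 library the count ran from 56 to 98, with 19 to 40 higher and 37 to 61 lower. The higher count fell to 20 without dHC library 30, 21 without vHC library 21, 19 without vHC library 27 and 20 without vHC library 29. Calls of tRNA and rRNA entries were 0 without block and 1 to 9 without 1 library, at 4 (dHC library 20), 3 (dHC 30), 1 (vHC 5), 3 (vHC 15), 4 (vHC 19) and 2 (vHC 29). The log10 total miRNA count, dHC minus vHC, was 0.0278 and ran from -0.0271 (without dHC library 28) to 0.0829 without 1 library, with -0.0045 without vHC library 27. The 54 named miRNAs kept their direction in every alternative, 38 kept their call without each library and 20 lost it without block. The interaction stayed at 0 calls in 5 alternatives, 1 of which, without control dHC library 24, was chosen after seeing the data. No paired analysis was possible because the regions share no replicate numbers and the labels do not tie neighbouring library numbers to a mouse. The causes were not tested.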

Other observations

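Other miRNAs called after swim were chosen for mention after their values were seen. Lower in dHC without overlap were mir-592, from the glutamate receptor gene Grm8, with medians of 95.6 and 159 normalized CPM (log2 difference -0.76, SE 0.13, adjusted p = 0.000623), mir-31, with 175 and 378 (-0.96, SE 0.16, adjusted p = 0.000623), and mir-370, from an intron of Rian between the imprinted groups of chromosome 12, with 858 and 1297 (-0.61, SE 0.10, adjusted p = 0.000623). In control mice these gave -0.70, -0.96 and -0.59.

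Of a pair with a shared seed, mir-148a and mir-152 were lower in dHC by -0.64 (SE 0.12, adjusted p = 0.00106) and -0.54 (SE 0.12, adjusted p = 0.00401) on the log2 scale, and the third tested member with that seed, mir-148b, was not called. Also lower were mir-383 (-0.73, SE 0.13, adjusted p = 0.00094) and mir-135a (-0.53, SE 0.11, adjusted p = 0.00401), with mir-135b at -0.41 (SE 0.12, adjusted p = 0.02). These 3 calls were lost without the block, and of 23 alternatives mir-383 and mir-135a kept theirs in 22 and mir-135b in 19.

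Higher in dHC were mir-15a, with medians of 642 and 345 CPM (0.76, SE 0.21, adjusted p = 0.0207), and mir-16, with 8926 and 6691 (0.36, SE 0.10, adjusted p = 0.0208). Both calls were lost without the block, and they were kept in 20 and 18 of 23 alternatives. They share a seed with 4 tested miRNAs that were not called. In control mice mir-15a gave 1.11 (SE 0.24) and mir-16 0.68 (SE 0.10).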
